A study of Mus musculus with 16 samples.

Results

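The Cyp2b subfamily of cytochrome P450 enzymes was followed in mouse liver through every array probe whose RefSeq accession belongs to Cyp2b10, Cyp2b9, Cyp2b13, Cyp2b23 or Cyp2b19. These 5 genes had 7 probes among 41174 probes on the array, and among 19096 genes to which a probe could be assigned. Cyp2b9 and Cyp2b13 had 2 probes each, and the other genes had 1. All 7 passed the filter on dim probes, which asked for a signal well above background on each of the 4 arrays in 1 group or more, and were tested among 24456 probes.

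RNA from the livers of 16 male mice aged 57 weeks was hybridised to single-colour Agilent arrays, 1 mouse per array. All mice, controls included, had received diethylnitrosamine (DEN), a DNA-alkylating liver carcinogen, by injection at 90 mg/kg at the age of 5 weeks. The groups without phenobarbital (PB) are named DEN, and the DEN + PB groups were given PB in their drinking water, 0.5 g/l, starting at 7 weeks and lasting until collection. Both treatments were given to wild type (WT) mice and to mice carrying the null allele Gadd45b tm1Flv (KO), which made 4 groups of 4 arrays. WT mice were C57BL/6J. The stock name of the KO line joins C57BL/6 to another inbred strain, although the study also speaks of a single C57BL/6 background. Littermate controls were not described, so the null allele and any difference in strain between the lines cannot be told apart. The tissue came from regions of the liver without tumours. It was whole tissue, and in such RNA fewer expressing cells and less RNA per cell cannot be told apart.

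Cyp2b enzymes sit in the endoplasmic reticulum of hepatocytes, where they oxidise drugs, steroids and fatty acids. PB acts on them through the constitutive androstane receptor (CAR, gene Nr1i3), which moves into the nucleus, pairs with the retinoid X receptor and binds an enhancer that lies well upstream of the promoter. Cyp2b10 is the standard readout of CAR activity in mouse liver. Cyp2b9 and Cyp2b13 are known as female-predominant genes that the male pattern of growth hormone keeps low, and Cyp2b19 is known as an epoxygenase of the epidermis rather than of the liver.

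The 5 genes lie in one cluster on chromosome 7, in the order Cyp2b10, Cyp2b13, Cyp2b9, Cyp2b23, Cyp2b19. The RefSeq gene table of mouse assembly GRCm38.p6 places 3 Cyp2b pseudogenes between Cyp2b10 and Cyp2b9 and the related gene Cyp2a4 between Cyp2b9 and Cyp2b23. None of the 3 pseudogenes had a probe. Sequences of the array probes were not used here, so how much of a probe's signal came from a near-identical paralogue was not tested.

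How alike the genes are at their starts shows in the bases before the annotated start sites, from RefSeq on GRCm38.p6. The stretch that ends in TATA-like letters is given for all 5 genes, because it divides them into 2 kinds. Capitals mark CATAAAA in Cyp2b10, Cyp2b23 and Cyp2b19, and CATCAAAA, which follows the like stretch in Cyp2b9 and Cyp2b13. The first capital lies at -28 in Cyp2b10, -55 in Cyp2b23, -10 in Cyp2b19 and -29 in Cyp2b9 and Cyp2b13, counted from the annotated start, so the distance to that start differs between the genes.
Cyp2b10 (chr7:25897584-25897636, plus strand): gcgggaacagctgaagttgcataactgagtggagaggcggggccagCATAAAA
Cyp2b23 (chr7:26686479-26686531, minus strand): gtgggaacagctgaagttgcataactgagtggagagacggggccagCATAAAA
Cyp2b19 (chr7:26757086-26757138, plus strand): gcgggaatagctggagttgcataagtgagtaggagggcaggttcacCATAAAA
Cyp2b9 (chr7:26173334-26173387, plus strand): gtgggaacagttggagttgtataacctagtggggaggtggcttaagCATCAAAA
Cyp2b13 (chr7:26061420-26061473, plus strand): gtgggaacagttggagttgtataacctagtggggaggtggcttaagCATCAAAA

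Over the 250 bases before the start, Cyp2b9 and Cyp2b13 were identical at 248 positions (99.2%). Both windows are printed whole because these genes are the closest pair of the family, with capitals at the 2 positions that differ, -203 and -147 relative to the start.
Cyp2b9 (chr7:26173159-26173408, plus strand): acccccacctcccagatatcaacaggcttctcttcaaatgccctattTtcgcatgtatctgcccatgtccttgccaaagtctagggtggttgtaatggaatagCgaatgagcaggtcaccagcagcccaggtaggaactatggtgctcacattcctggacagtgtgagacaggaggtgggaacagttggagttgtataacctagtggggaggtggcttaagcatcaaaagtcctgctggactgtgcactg
Cyp2b13 (chr7:26061245-26061494, plus strand): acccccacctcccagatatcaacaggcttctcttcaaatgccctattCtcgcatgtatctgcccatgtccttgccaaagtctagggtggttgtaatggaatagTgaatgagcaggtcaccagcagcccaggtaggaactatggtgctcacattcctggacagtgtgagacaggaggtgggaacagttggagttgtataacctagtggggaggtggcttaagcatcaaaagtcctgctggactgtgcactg

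The Cyp2b10 window shared 75.83% of aligned bases with Cyp2b9 and with Cyp2b13, 78.41% with Cyp2b19 and 85.31% with Cyp2b23. Motifs were searched on both strands of these windows. CATAAAA was present in Cyp2b10, Cyp2b23 and Cyp2b19 and in 3.77% of 32851 promoter windows of the same length. The letters TTGCATAA, the kind of site C/EBP factors bind, were in the same 3 genes and in 0.694% of all windows. These matches did not overlap those of CATAAAA, and the stretches printed above hold both. The nuclear receptor half-site AGGTCA was in every Cyp2b window except that of Cyp2b10, and in 14.0% of all windows. AGTTCA, direct repeats of these half-sites with a spacer of 4 bases, TATAAA and TTCNNNGAA were in none of the Cyp2b windows, while 11.8%, under 0.01%, 12.4% and 7.02% of all windows held them. The CAR-responsive enhancer of Cyp2b10 lies outside a window of this length.

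Signals are on a log2 scale on which 0 is the 75th percentile of the same array, a level that stood between 137 and 294 intensity units. On that scale 1 unit is a factor of 2. Probes differ in how brightly they hybridise, so each probe was compared only with itself across arrays. The share of spots well above background ranged from 58.3% to 67.7% over the arrays, and no spot was saturated. Gadd45b was well above background on all 8 WT arrays and on 0 of 8 KO arrays. Summed levels of 6 hepatocyte markers lay between 912.6 and 1352 times the 75th percentile on all arrays, and those of 6 leukocyte markers between 2.42 and 17.3.

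PB raised the signal of 6 of the 7 Cyp2b probes in WT liver and 5 of 7 in KO liver, where 0.589% and 1.05% of all tested probes were called higher. A probe was called at a Benjamini-Hochberg adjusted p under 0.05 in the limma fit and a change of at least 1.5-fold. Counting both directions, 0.667% and 1.72% of tested probes were called. Signals of the same 6 and 5 probes were higher on all 4 DEN + PB arrays than on all 4 DEN arrays, a separation that 2.72% of tested probes showed in WT and 3.62% in KO. The smallest p that an exact permutation test of 4 arrays against 4 allows, two-sided, is 0.0286, and each of these probes reached it. Cyp2b23 passed the filter on dim probes only through the WT DEN + PB group, where it is high, and without it the counts are 5 of 6 and 4 of 6. The plot of signals by group shows every array.

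**Figure D1:**
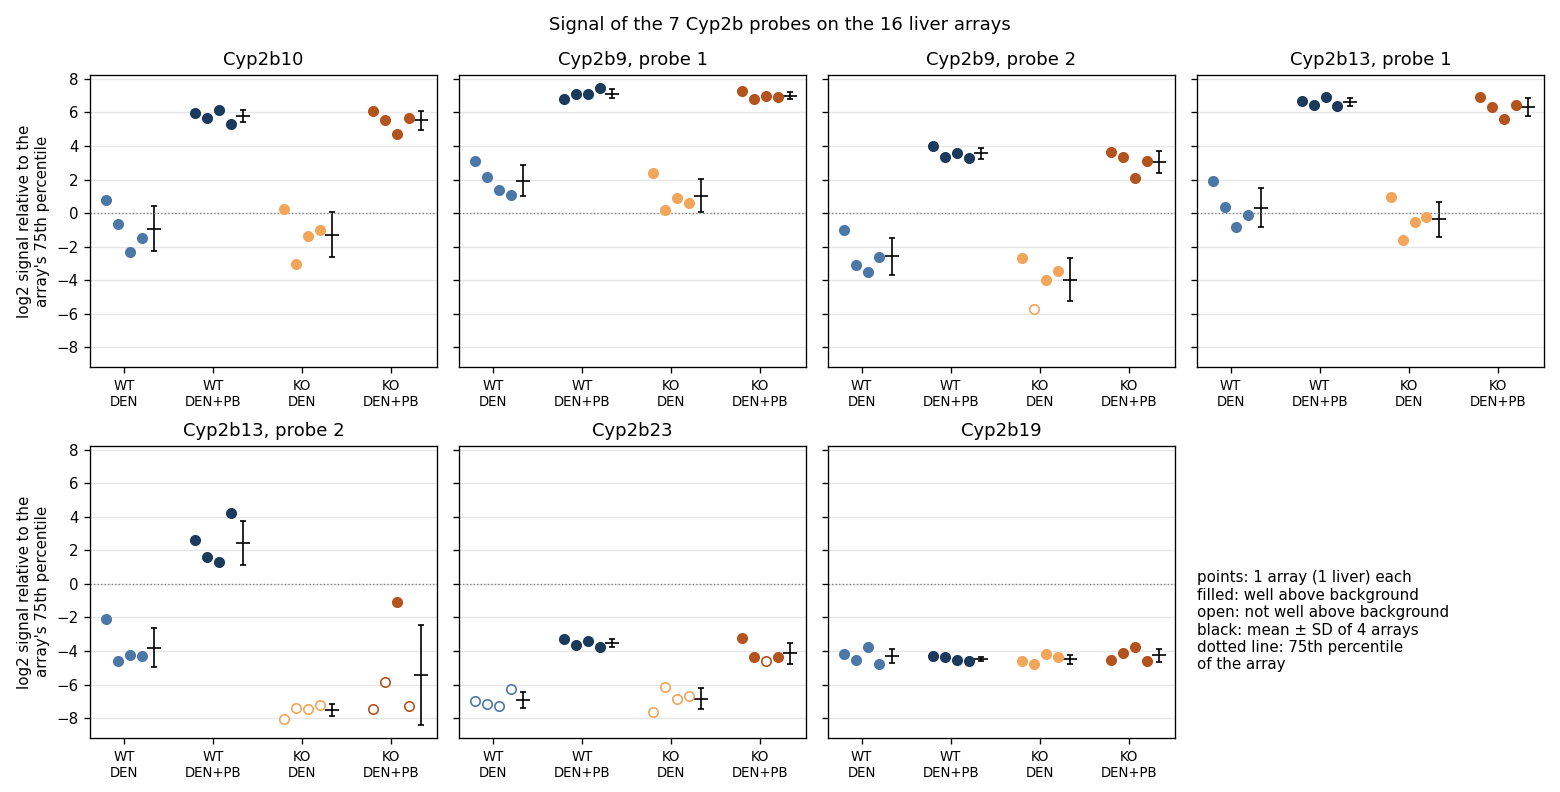
Log2 signal, with 0 at the 75th percentile of the array (vertical axis), for each of the 7 Cyp2b probes in the 4 groups. Each point is 1 array, open points were not well above background, and black marks show the mean and SD of 4 arrays. Probes for Cyp2b10, Cyp2b9 and Cyp2b13 (probe 1) rise with PB in both genotypes, Cyp2b13 probe 2 is well above background on 1 of 8 KO arrays, and Cyp2b19 stays between -4.79 and -3.78 in all groups.

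Cyp2b10 was read by 1 probe (A_52_P472486). On the WT DEN arrays its log2 signal was 0.75, -0.62, -2.33 and -1.48, and on the WT DEN + PB arrays it was 5.97, 5.66, 6.12 and 5.33. On the KO DEN arrays it was 0.23, -3.02, -1.37 and -0.98, and on the KO DEN + PB arrays it was 6.09, 5.57, 4.72 and 5.68. No array with PB came near an array without it, whereas the WT and KO arrays overlapped under each treatment. The change after PB was 6.69 ± 0.62 (SE) on the log2 scale in WT, or 103-fold, and 6.80 ± 0.62 in KO, or 112-fold (limma, adjusted p = 1.42e-05 and 1.086e-05). With normexp, another background correction, it was 5.69 in WT and 5.95 in KO. The spread between mice was wide without PB, with an SD of 1.31 in WT and 1.34 in KO, against 0.35 and 0.57 with it.

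Cyp2b9 probe 1 (A_51_P467076) stood at 3.13, 2.12, 1.35 and 1.10 on the WT DEN arrays and at 6.82, 7.10, 7.09 and 7.45 on the WT DEN + PB arrays. In KO the values were 2.42, 0.20, 0.91 and 0.63 under DEN and 7.29, 6.79, 6.95 and 6.92 under DEN + PB. The probe was well above background in every liver of these males, also without PB. Its rise was 5.19 ± 0.43, or 36.4-fold, in WT and 5.95 ± 0.43, or 61.8-fold, in KO (limma, adjusted p = 3.791e-06 and 9.163e-07). With PB the 4 arrays of a group lay close together, with an SD of 0.26 in WT and 0.21 in KO.

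Cyp2b9 probe 2 (A_52_P256914) gave -1.02, -3.10, -3.54 and -2.60 on the WT DEN arrays and 4.02, 3.31, 3.61 and 3.29 on the WT DEN + PB arrays. In KO it gave -2.70, -5.70, -4.0 and -3.46 under DEN, of which the value of replicate 2 was not well above background, and 3.64, 3.32, 2.10 and 3.08 under DEN + PB. Both probes of the gene therefore separated the treatments in each genotype. The change was 6.12 ± 0.57 in WT, or 69.6-fold, and 7.00 ± 0.57 in KO, or 128-fold (limma, adjusted p = 1.521e-05 and 2.721e-06). The KO value includes the dim array. With normexp the changes were smaller, 4.01 in WT and 4.39 in KO, and were still called.

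Cyp2b13 probe 1 (A_51_P492339) stood at 1.91, 0.37, -0.82 and -0.14 on the WT DEN arrays and at 6.66, 6.47, 6.91 and 6.38 on the WT DEN + PB arrays. In KO it stood at 0.94, -1.60, -0.53 and -0.23 under DEN and at 6.94, 6.31, 5.62 and 6.45 under DEN + PB. As for Cyp2b9, the lowest array with PB was above the highest without it in each genotype. The rise was 6.28 ± 0.52, or 77.6-fold, in WT and 6.69 ± 0.52, or 103-fold, in KO (limma, adjusted p = 3.791e-06 and 1.803e-06). With normexp it was 5.75 in WT and 6.14 in KO.

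Cyp2b13 probe 2 (A_52_P289091) behaved in another way. On the WT DEN arrays it was well above background throughout, at -2.09, -4.60, -4.21 and -4.29, and with PB it was at 2.62, 1.58, 1.32 and 4.20. None of the KO DEN arrays had it well above background, with readings between -8.05 and -7.20. Of the KO DEN + PB arrays, replicate 3 alone was well above background, at -1.06, and the readings of the other three lay between -7.44 and -5.87. In WT the rise after PB was 6.23 ± 1.07, or 75.1-fold (limma, adjusted p = 0.00672). With normexp it was 3.57 and still called, and the call was lost when the variance was not moderated across probes (adjusted p = 0.0561). In KO the arrays with and without PB overlapped and the probe was not called (limma, adjusted p = 0.458), and since 1 of 8 KO arrays measured it, no size is given there.

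**Figure D2:**
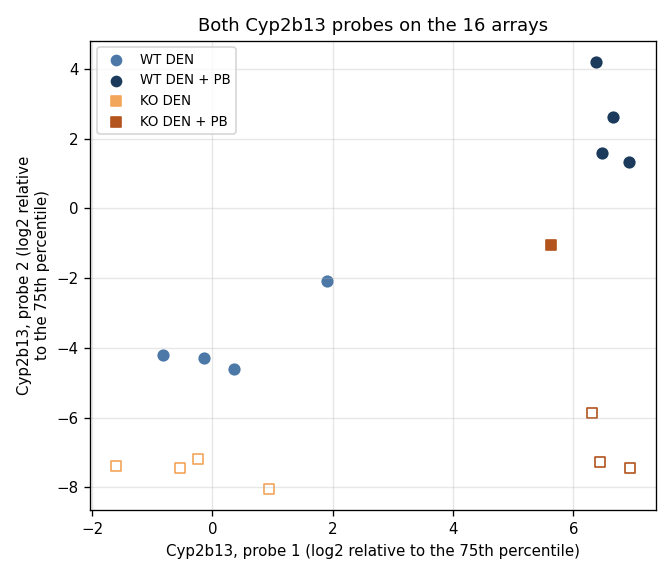
Log2 signal of Cyp2b13 probe 2 (vertical axis) against probe 1 (horizontal axis), both with 0 at the array's 75th percentile, with circles for WT and squares for KO, and open marks where probe 2 was not well above background. Along the horizontal axis the KO DEN + PB arrays lie between 5.62 and 6.94 and the WT DEN + PB arrays between 6.38 and 6.91, while along the vertical axis all KO arrays lie below all WT arrays of the same treatment.

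Cyp2b23 (A_51_P330380) did not stand well above background in any of the 8 DEN livers. With PB it was at -3.27, -3.67, -3.42 and -3.78 in WT, well above background on all 4 arrays, and at -3.20, -4.34, -4.60 and -4.34 in KO, well above background on all but replicate 3. The signal was higher with PB in WT and in KO (limma, adjusted p = 2.066e-05 and 0.000186). An approximate lower bound of the rise was 3.62-fold in WT and 2.17-fold in KO. Since the probe was tested only because the WT DEN + PB arrays measured it, a difference from the DEN arrays was built into its selection. The bound sets the mean of the DEN + PB arrays against the dimmest signal of any probe that still counted as well above background on each DEN array. It is approximate, because that level need not be the detection limit of this probe. On replicate 3 of KO DEN + PB such a level was -4.63, and Cyp2b23 at -4.60 was still not well above background. That reading is also part of the KO mean. The call was lost with normexp, where the change was 0.20 in WT and 0.45 in KO (adjusted p = 1 and 0.9999). Normexp was run with an added offset of 50 units, which shrinks changes of dim probes, and this probe's highest processed signal was 30.5 units.

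Cyp2b19 (A_51_P352763), the epidermal member, was dim but well above background on all 16 arrays. Its log2 signal lay between -4.75 and -3.78 in WT DEN, -4.62 and -4.32 in WT DEN + PB, -4.79 and -4.19 in KO DEN and -4.58 and -3.79 in KO DEN + PB. All groups overlapped. The change after PB was -0.16 in WT, with a 95% confidence interval from -0.63 to 0.31, and 0.23 in KO, from -0.24 to 0.70 (limma, adjusted p = 0.976 and 0.794). Those intervals allow a rise of at most 0.70 on the log2 scale, while the intervals of Cyp2b10, Cyp2b9 and Cyp2b13 probe 1 began at 4.28 or above. They rest on processed signals of 5.87 to 14.7 units, near the background.

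**Figure D3:**
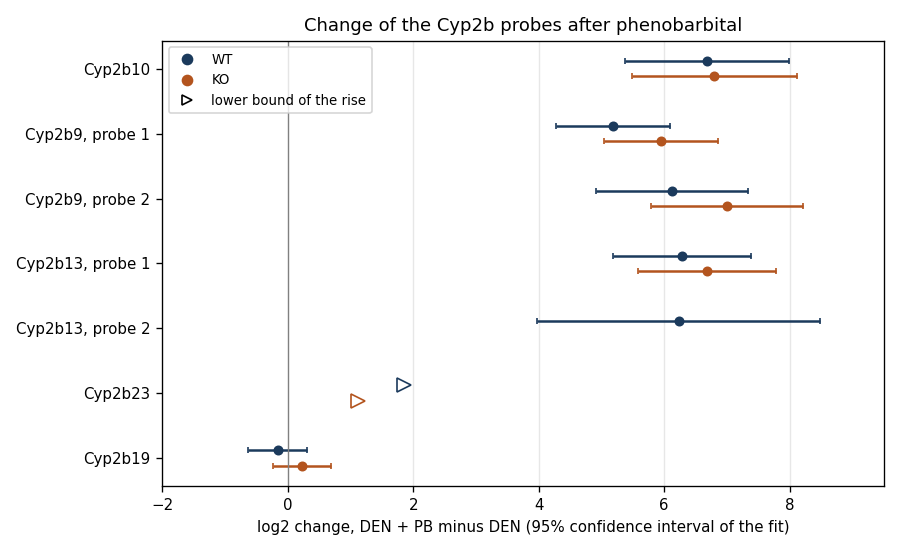
Fitted log2 change of each Cyp2b probe, DEN + PB minus DEN (horizontal axis), with 95% confidence intervals, in WT and KO. Triangles mark the approximate lower bounds of the rise of Cyp2b23, and no size is drawn for Cyp2b13 probe 2 in KO, where 1 of 8 arrays measured it. The intervals of Cyp2b10, Cyp2b9 and Cyp2b13 probe 1 begin at 4.28 or above in both genotypes, and those of Cyp2b19 include 0.

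The arrays had been hybridised on 4 slides, with 3 slides holding both WT treatments and 3 holding both KO treatments. Within them the rise of Cyp2b10 was 4.91, 6.38 and 8.30 in WT and 8.70, 5.34 and 5.90 in KO. For Cyp2b9 probe 1 it was 3.97, 5.84 and 5.46 in WT and 6.72, 4.37 and 6.19 in KO. For Cyp2b13 probe 1 it was 4.56, 6.26 and 7.48 in WT and 8.05, 5.37 and 6.00 in KO. Since every DEN + PB array lay above every DEN array of its genotype for these probes, the sign could not differ between slides. Each value sets 1 DEN + PB array against 1 or 2 DEN arrays, so its size also carries the spread between mice. With slide as a block in the limma fit, the rise of Cyp2b10 was 6.70 in WT and 6.79 in KO (adjusted p = 0.000323 and 0.000259).

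The probes for Cyp2b10, Cyp2b9 and Cyp2b13 probe 1 also varied together between mice of one group, apart from Cyp2b9 probe 1 with PB. Their residual SDs within groups, between 0.68 and 1.00 on the log2 scale, exceeded those of 94.77% to 99.03% of tested probes, whose median was 0.30. Deviations from the group mean had a Pearson correlation of 0.988 between Cyp2b10 and Cyp2b13 probe 1 over the 16 arrays, 0.931 between Cyp2b10 and Cyp2b9 probe 2, and 0.822 between Cyp2b10 and Cyp2b9 probe 1. The last of these was 0.905 over the 8 DEN arrays and -0.057 over the 8 DEN + PB arrays. With PB, Cyp2b9 probe 1 also had correlations of -0.092 with Cyp2b9 probe 2 and 0.178 with Cyp2b13 probe 1. Cyp2b10 and Cyp2b13 probe 1 kept a correlation of 0.971 there. The SD of Cyp2b9 probe 1 with PB was 0.26 in WT and 0.21 in KO, against 0.24 and 0.55 for Cyp2b13 probe 1. The probes share each array's scaling, and the part of cross-hybridisation in these correlations was not tested.

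Replicate 1 of WT DEN and replicate 1 of KO DEN were above their group means for all 4 of these probes, by 1.20 to 1.67 and by 1.26 to 1.51 on the log2 scale. Replicate 3 of WT DEN and replicate 2 of KO DEN were below for all 4, with deviations from -1.41 to -0.57 and from -1.74 to -0.84. The high WT DEN array and the low KO DEN array came from the same slide. With PB the same 4 probes deviated less, from -0.93 to 0.61, and the farthest array was replicate 3 of KO DEN + PB. That array was the lowest of its group for Cyp2b10, Cyp2b9 probe 2 and Cyp2b13 probe 1, did not have Cyp2b23 well above background, and was the one KO array that measured Cyp2b13 probe 2. It also had the lowest 75th percentile of the 16 arrays, at 137 intensity units. What part that had in its values was not tested.

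**Figure D4:**
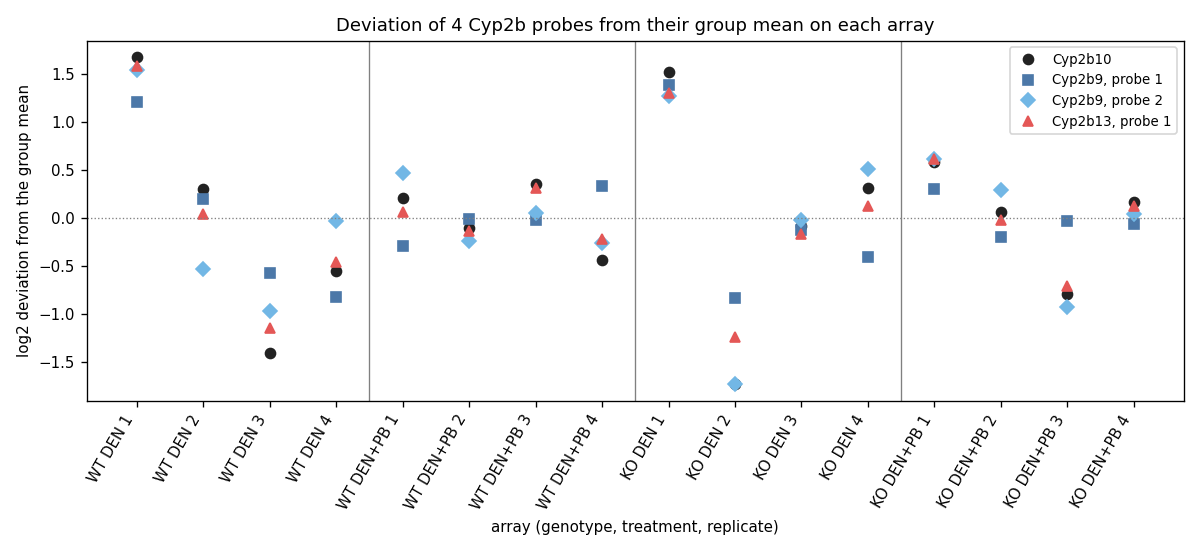
Deviation of the log2 signal from the group mean (vertical axis) for Cyp2b10, both Cyp2b9 probes and Cyp2b13 probe 1 on each of the 16 arrays (horizontal axis, by group and replicate). The 4 probes lie from 1.20 to 1.67 above the mean in replicate 1 of WT DEN and have deviations from -1.74 to -0.84 in replicate 2 of KO DEN.

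Whether loss of Gadd45b altered the response to PB was asked with the interaction, the PB effect in WT minus that in KO. No Cyp2b probe was called for it in limma, where 0.00818% of tested probes were, and the fit without moderation called none either. For Cyp2b10 the difference was -0.11, with a 95% confidence interval from -1.96 to 1.74 (adjusted p = 0.9964). For Cyp2b9 it was -0.76 (from -2.05 to 0.52) with probe 1 and -0.88 (from -2.59 to 0.83) with probe 2, and for Cyp2b13 probe 1 it was -0.41 (from -1.96 to 1.15). The interval of Cyp2b10 leaves room for a PB response several times larger or smaller in one genotype than in the other. Cyp2b13 probe 2 was the 1 Cyp2b probe with an unadjusted p under 0.05, as were 6.03% of tested probes (limma, adjusted p = 0.630).

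Under DEN alone, the KO minus WT difference was called for no Cyp2b probe in limma or without moderation, where limma called 3.07% of tested probes, and 2 of 7 had an unadjusted p under 0.05, as did 20.3% of tested probes. The difference of Cyp2b9 probe 2 was -1.40 (95% confidence interval from -2.61 to -0.19, limma, adjusted p = 0.178). For the probe 1 of that gene the difference was -0.89 (from -1.80 to 0.02, adjusted p = 0.259), for Cyp2b13 probe 1 it was -0.69 (from -1.79 to 0.42) and for Cyp2b10 it was -0.37 (from -1.67 to 0.94). The WT and KO arrays overlapped for all of these. Within slides the sign was not stable, since the KO minus WT difference of Cyp2b10 was -3.77 on slide 1 and 2.56 on slide 3, and both Cyp2b9 probes and Cyp2b13 probe 1 reversed in the same way.

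Cyp2b13 probe 2 was higher in WT DEN than in KO DEN, where no array measured it, with an approximate lower bound of 2.71-fold. As the probe passed the filter only through the WT groups, where it is high, a difference in this direction was built into its selection. The tests that follow are therefore given as a description. The 4 WT arrays lay above the 4 KO arrays (p = 0.0286, exact permutation test), as for 5.43% of tested probes, but the limma fit over all arrays did not call it (p = 0.00299, adjusted p = 0.0677). It was called when the fit held the 8 DEN arrays only (adjusted p = 0.00636) or left out replicate 3 of KO DEN + PB (adjusted p = 0.00543). Replicate 3 of KO DEN + PB is in another group, and enters here only through the shared estimate of spread. With normexp the difference was -0.90 (adjusted p = 0.670), and -0.47 where spots of outlying background were left out (adjusted p = 0.730), both smaller than the bound. Both settings add an offset of 50 units, which shrinks differences of dim probes. On the WT DEN arrays the processed signal of this probe was 10.3 to 41.0 units.

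Under DEN + PB, Cyp2b13 probe 2 was the 1 Cyp2b probe called between genotypes, lower in KO, where 6.74% of tested probes were called and 4.61% called lower. All 4 WT arrays lay above all 4 KO arrays (p = 0.0286, exact permutation test), as for 8.22% of tested probes, and the adjusted p was 0.000438 in limma and 0.00124 with slide as a block. The probe passed the filter only through the WT groups, where it is high, so this difference is described and is not independent of that selection. No size is given, because 1 of the 4 KO arrays measured the probe. Without that array, replicate 3, the adjusted p was 1.089e-06. With the groups apart in this way, KO readings were bound to be lower than WT within each of the 4 slides, which adds no separate check.

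The probe 1 of Cyp2b13 did not follow it. Its KO minus WT difference under DEN + PB was -0.28 (from -1.38 to 0.82, adjusted p = 0.789), and its arrays overlapped. For Cyp2b10 the difference was -0.25 (from -1.56 to 1.05), for Cyp2b9 -0.13 (from -1.03 to 0.78) with probe 1 and -0.52 (from -1.73 to 0.69) with probe 2, for Cyp2b19 0.21 (from -0.25 to 0.68), and for Cyp2b23, with 1 KO array not well above background, -0.59 (from -1.28 to 0.11). The 2 probes of Cyp2b13 thus gave unlike answers on the same RNA, and which of them reads the Cyp2b13 transcript alone was not tested. A strain difference between the lines in the bases under a probe cannot be told apart from an effect of the null allele here. Some leukocyte markers also differed between the genotypes. Of 5 tested, Cd68 and Adgre1 were lower in KO under DEN and these, Ptprc and Itgam under DEN + PB, while the difference of Cd3e was 0.18 and 0.37. The summed level of all 6 lay between 6.65 and 17.3 on the WT arrays and between 2.42 and 3.82 on the KO arrays, and their part in the Cyp2b13 result was not tested.

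**Figure D5:**
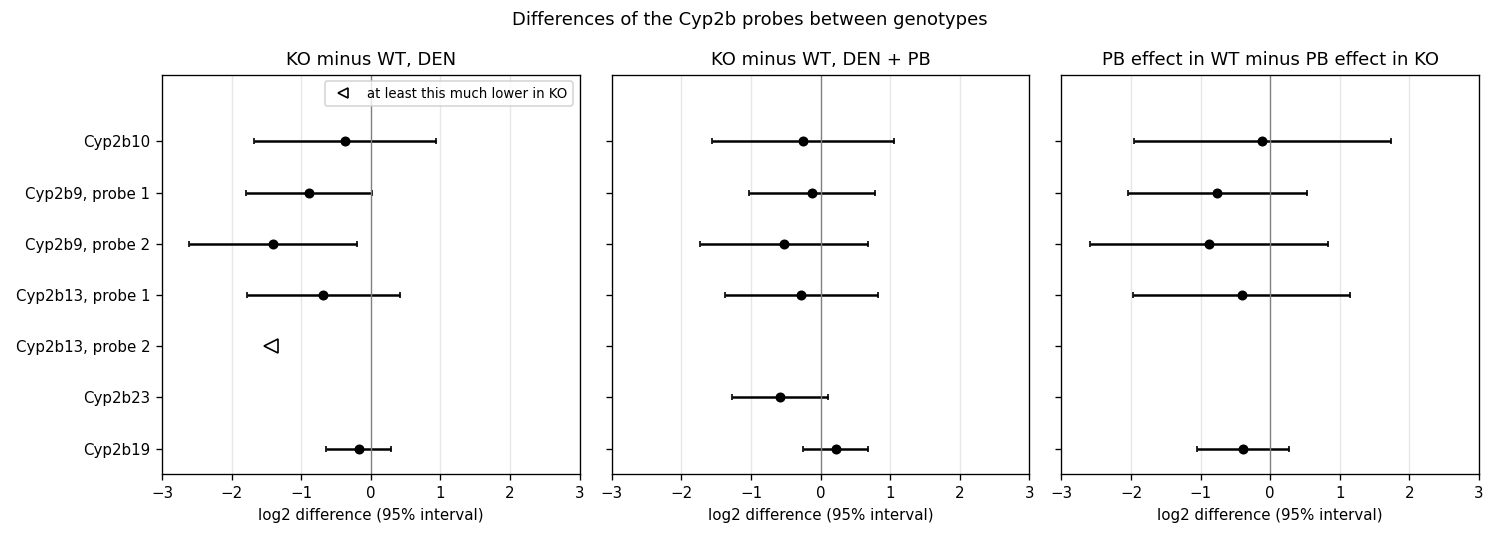
Log2 differences of the Cyp2b probes (horizontal axes) with 95% confidence intervals, for KO minus WT under DEN, KO minus WT under DEN + PB, and the PB effect in WT minus that in KO. The triangle marks Cyp2b13 probe 2, lower in KO under DEN with an approximate bound of 2.71-fold. No size is drawn where a group was measured on too few arrays. Apart from Cyp2b9 probe 2 under DEN, all intervals drawn include 0.

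Among other genes known as targets of CAR, 26 were tested, and the shifts were smaller than those of Cyp2b10. In WT 11 rose and none fell after PB, with a median change of 0.71 on the log2 scale, and in KO 17 rose and none fell, with a median of 1.05. Over all tested probes 0.589% and 1.05% were called higher. Under other scalings and background corrections the counts of genes that rose ranged from 3 to 13 in WT and from 6 to 18 in KO. The medians over all tested probes were -0.02 and under 0.01. The largest rises in WT were those of Cyp2c65 (4.62 ± 0.49, SE), Cyp2c55 (4.40 ± 0.24) and Cbr3 (4.01 ± 0.41), a pair of cytochromes and a carbonyl reductase. In KO they were Cyp2c65 (4.55 ± 0.49), Cyp2c55 (4.16 ± 0.24) and Akr1b7 (3.87 ± 0.22), an aldo-keto reductase. Under DEN + PB, Akr1b7 was 1.74 higher in KO, and Cbr3 and the exporter Abcc4 differed by -1.63 and -0.90, while none of the 26 was called under DEN, with 3 at an unadjusted p under 0.05 against 20.3% of all tested probes. For the interaction none of the 26 was called by limma, with 5 at an unadjusted p under 0.05, against 6.03% of all tested probes.

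CAR itself was not called in any comparison. Nr1i3 moved by -0.26 ± 0.16 in WT and 0.24 ± 0.16 in KO after PB (limma, adjusted p = 0.8294 and 0.6217). Its interaction was -0.50 ± 0.22, and under DEN + PB it differed by 0.37 ± 0.16 between KO and WT (limma, adjusted p = 0.793 and 0.173). None of the 11 genes of the list of CAR and its partners was called after PB, and 1 in WT and 0 in KO had an unadjusted p under 0.05. Over all tested probes, 7.29% had such a p after PB in WT and 12.1% in KO.

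Of 7 tested neighbours in the same CYP2 gene cluster, Cyp2a22 rose in WT by 1.86 ± 0.29. In KO Cyp2g1, an olfactory P450, rose by 2.22 ± 0.43, Cyp2a22 by 1.94 ± 0.29 and Cyp2a4, a steroid hydroxylase of female liver, by 0.89 ± 0.20. The median change of these neighbours was 0.84 in WT and 0.73 in KO, against -0.02 and 0.0007 over all tested probes. Of all tested probes, 0.589% in WT and 1.05% in KO were called higher.

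Since Cyp2b9 and Cyp2b13 belong to the female-predominant programme, other genes of that programme were counted. Of 15 tested, none was called after PB in WT, although 5 had an unadjusted p under 0.05 in limma, and 4 rose in KO. These were Hao2, a peroxisomal oxidase (2.61 ± 0.57), Slco1a4, an organic anion transporter (1.19 ± 0.25), Cyp2a4, and Cyp3a16 (0.87 ± 0.18), a cytochrome. The list's median was 0.19 in WT and 0.53 in KO. Of all tested probes, 0.589% in WT and 1.05% in KO were called higher, and 7.29% and 12.1% had an unadjusted p under 0.05. Of 13 male-biased genes, Susd4 fell by 1.77 on the log2 scale in WT and Cyp2u1 fell by 1.24 in KO, with medians of -0.62 and -0.47. Counting both directions, 0.667% of all tested probes were called in WT and 1.72% in KO. None of 10 genes of growth hormone and STAT5 signalling was called after PB, with 2 in WT and 1 in KO at an unadjusted p under 0.05.

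PB induction of P450 enzymes is known to be strongest around the central vein, so zonation genes were counted too. Of 10 pericentral genes, Rhbg, an ammonium transporter, rose in WT by 1.92 ± 0.39 and in KO by 1.79 ± 0.39, and Cyp1a2 rose in KO by 1.03 ± 0.24, with medians of -0.08 and 0.20 over the list. None of 9 periportal genes was called after PB, with 4 in WT and 0 in KO at an unadjusted p under 0.05. Of all tested probes, 7.29% in WT and 12.1% in KO had such a p, and 0.589% and 1.05% were called higher. Of 5 biliary markers, Krt19 and Krt7, keratins of bile duct cells, rose in WT after PB by 1.27 ± 0.19 and 1.16 ± 0.23. In KO 0 of the 5 were called after PB. Under other scalings and background corrections 0 to 2 were called higher in WT. Between genotypes under DEN + PB, 3 of the 5 were called lower in KO, as were 4.61% of all tested probes. That count ranged from 0 to 4 under the other settings. The summed level of the 5 biliary markers was between 11.9 and 31.7 in WT DEN and between 17.7 and 35.5 in WT DEN + PB, against 12.2 to 36.5 in KO DEN and 11.98 to 15.5 in KO DEN + PB, and their part in the Cyp2b values was not tested.

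The genes whose signals across the 16 arrays were most like those of the Cyp2b probes were sought among 13275 genes, by Pearson correlation with the brightest probe of each member. For Cyp2b10 they were Cyp2c55 (0.981), Gna14, a G protein subunit (0.951), and Cyp2c66 (0.950). Cyp2c55 and Gna14 also came first for Cyp2b9 (0.969 each), before Ptges, a prostaglandin E synthase (0.964), and for Cyp2b13 (0.982 and 0.961), before Cyp2c66 (0.955). For Cyp2b23 they were Cyp2c55 (0.955), Cyp2c65 (0.941) and Cyp2c66 (0.937). Cyp2b19 stood apart, with Sall4, a zinc finger factor (0.907), Hcrtr1 (0.857) and Polr2a (0.856).

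With the group means removed, the closest gene to Cyp2b10 was Ephx1, the microsomal epoxide hydrolase (0.907), followed by Poldip2 (0.894) and Vamp8 (0.891). The same 3 genes came first for Cyp2b13, with Vamp8 at 0.899, Poldip2 at 0.871 and Ephx1 at 0.865. For Cyp2b9 they were Cryl1 (0.852), Rcbtb2 (0.836) and Akr1a1 (0.822), for Cyp2b23 Htt (0.900), Pmvk (0.845) and Col12a1 (0.7503), and for Cyp2b19 Sall4 (0.913), Ly9 (0.899) and Gpr153 (0.886). These are the highest of 13275 correlations over 16 arrays that share their scaling, and are given as a description. Cyp2b23 was not well above background on any DEN array or on replicate 3 of KO DEN + PB, so its deviations there are of readings near background.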

How the data were processed

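The deposited scanner files were written by Agilent Feature Extraction 12.0.3.1, and the processed signal the authors deposited is a linear intensity, corrected for background, without scaling between arrays. The deposited series table holds the same intensity, averaged over the spots of a probe to within 5e-04 percent. Spots marked as outliers (71 to 122 per array) were left out, replicate spots were averaged, and log2 values were centred on the array's 75th percentile. The number of arrays, not a read depth, limits the precision. A probe was tested if each of the 4 arrays in 1 group or more had it well above background (24456 probes, 59.4%). Accessions were named through the RefSeq table of GRCm38.p6, which named 68.5% of probes. The array was designed on mm9.

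limma 3.58.1 in R 4.3.3 (lmFit, eBayes) was fitted with 4 group means over 16 arrays, with Benjamini-Hochberg adjustment over all tested probes, after the script was tested on simulated data. Motifs and figures used Python 3.11.15. For gene lists the brightest tested probe of a gene counted. Every member probe was named, 3 genes per member by likeness, and from each list the 3 largest called rises and falls. Members and lists were chosen with earlier results of these data known. Alternatives were quantile and median scaling, the unscaled series table, normexp (offset 50) on the median signal and background, since no mean signal was among the columns used, with and without spots of outlying background, other filters, slide or replicate blocks, fits on fewer arrays, no moderation and no fold minimum.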

Additional observations from a re-analysis of the deposited data

Results flagged for a closer look

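One Cyp2b value stood far from the others of its group. On the array of WT DEN replicate 1, the log2 signal of Cyp2b13 probe 2 was -2.09, while the other three WT DEN arrays lay between -4.60 and -4.21, a gap of 0.845 of the group's whole range, more than the 95% critical value for 4 arrays. Chance flags about 1 in 20 groups, and 28 groups of 4 values were examined. The same array was the highest of its group for both Cyp2b9 probes, Cyp2b10 and Cyp2b13 probe 1.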

How the results depend on the processing

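Recomputed under 13 alternatives and without each array in turn, 1001 of 1008 single-probe values kept their direction and call, or had no call in either case, and none of the called values reversed. The number of Cyp2b probes called was 5 or 6 after PB in WT, 4 or 5 in KO, 0 for the interaction, and between genotypes 1 under DEN + PB. For KO against WT under DEN it was 0, except for 1 with only the arrays of the contrast in the fit and between 0 and 1 when single arrays were left out, the 1 being without replicate 3 of KO DEN + PB. Cyp2b10 rose by 5.69 to 6.79 in WT and 5.95 to 6.83 in KO over the alternatives, with adjusted p of at most 0.00076 and 0.000647. The rise of Cyp2b23 was not called under either normexp setting (0.20 and 0.30 in WT, 0.45 and 0.45 in KO). Both settings add an offset of 50 units, which shrinks changes of dim probes, and the highest processed signal of Cyp2b23 was 30.5 units. Other offsets were not tested. The CAR target list kept a positive median after PB under each scaling (0.64 to 0.81 in WT, 0.75 to 1.08 in KO).

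Counts over all probes moved more. After PB they were 163 in WT and 421 in KO, against 21 and 63 with normexp, 106 and 213 with the unscaled table, 274 in KO with the arrays of the contrast only, 244 in KO without a filter and 281 in KO without moderation. Between genotypes under DEN the count of 750 became 299 with slide as a block, 280 without a filter, 393 with a filter on 1 array, 372 with the arrays of the contrast only, 377 without moderation, 117 with the unscaled table, 21 with normexp and 405 with normexp without outlying backgrounds. Under DEN + PB, 1648 became 1042 without a filter, 50 with normexp and 616 without outlying backgrounds. For the interaction 0 to 4 probes were called, against 2. Leaving out single arrays gave 119 to 173, 269 to 483, 303 to 872, 1017 to 1924 and 1 to 6. Counts fell by over 1.5 times without replicates 1 or 4 of KO DEN or 2 of KO DEN + PB (PB in KO, 269, 279 and 274), without replicates 1 or 3 of WT DEN or 2 or 4 of KO DEN (genotypes under DEN, 401, 303, 308 and 325), and without replicate 4 of WT DEN + PB or 2 of KO DEN + PB (genotypes under DEN + PB, 1032 and 1017). With the unscaled table the median change over all probes was -0.30 for PB in KO, -0.29 for the genotype difference under DEN + PB and 0.37 for the interaction, against under 0.01, 0.05 and -0.03. Higher calls made up 61.0% after PB in KO, and 42.3% with that table or 92.1% with normexp. Under DEN they made up 54.1% between genotypes, and 34.6% with median scaling, and under DEN + PB 31.6%, and 4.01% with the unscaled table.

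Replicate numbers of the labels did not pair the arrays, since deviations of same-numbered arrays correlated between -0.205 and 0.329. With the replicate number as a block, the counts of Cyp2b probes called were 6, 5, 0, 0 and 1 as before, and counts over all probes were 168, 404, 2, 977 and 1724. Levels near the background limit what can be said of Cyp2b23, of Cyp2b19 and of Cyp2b13 probe 2 in KO.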
